A study of Mus musculus with 57 samples.

Results

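Dendritic cells are the antigen-presenting cells that start T cell responses, and 8 genes that mark them or their products were followed here in mice with leukemia-causing fusion transgenes. The genes were taken from a list given by name: Itgax, Zbtb46, Batf3, Xcr1, Clec9a, Cd209a and Ccl22 for conventional dendritic cells, and Siglech for plasmacytoid dendritic cells. Of the 8 listed genes, 7 had a probe set that the annotation gives to a single gene, out of 18165 such genes on the array, and Clec9a was not analysed here. The 7 genes had 10 probe sets, of which 4 belonged to Zbtb46, and 9 of the 10 passed the filter on low signals.

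RNA was measured on 57 Affymetrix arrays in 14 groups. The CA10 mice carried vav-CALM-AF10 and the NHD13 mice vav-NUP98-HOXD13, so that both fusions were under vav control, which is active across blood cells and not in 1 lineage. The spleen arrays comprised 6 CA10 and 6 NHD13 spleens with clinical signs of leukemia, 5 CA10 spleens without such signs and 2 wild-type (WT) spleens. There were 4 CA10, 3 NHD13 and 7 WT thymuses. Whole bone marrow was taken from 3 CA10, 3 NHD13, 3 WT mice labelled C57B6 and 6 other WT mice. Lineage-negative bone marrow, which is depleted of mature cells, had 3 arrays for each of CA10, NHD13 and WT. The transgenic thymuses and marrows came from mice without signs of leukemia. No leukemic thymus or marrow and no NHD13 spleen without leukemia was analysed here, and the labels give neither ages nor, apart from C57B6, a strain. The labels do not state that each array is a different mouse, so the p-values measure the spread between arrays.

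Conventional dendritic cells fall into a cDC1 type, which depends on the transcription factor Batf3 and carries the chemokine receptor Xcr1, and a cDC2 type, which in mice can carry the lectin Cd209a. Both types express the integrin Itgax (CD11c) and the transcription factor Zbtb46. Plasmacytoid dendritic cells, the main producers of type I interferon, carry the lectin receptor Siglech. Ccl22 is a chemokine made by dendritic cells and macrophages that attracts T cells through the receptor Ccr4. None of these genes is fully private to dendritic cells: Itgax is also found on some macrophages, natural killer cells and activated lymphocytes, and Zbtb46 in mice is also found in erythroid progenitors and endothelium.

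The promoters of 4 conventional genes that were higher together in CA10 leukemia and of the plasmacytoid gene are shown, so that they can be set beside each other. Each runs from 250 bases before to 50 bases after a start site of the gene (GRCm38.p6), on the gene's own strand. For Itgax and Siglech this site lies inside the RefSeq gene bounds, which begin at chr7:128129526 and chr7:55768154. Itgax lies at chr7:128129300-128129599 (plus strand), Batf3 at chr1:191098164-191098463 (plus), Cd209a at chr8:3748935-3749234 (minus), Xcr1 at chr9:123861980-123862279 (minus) and Siglech at chr7:55767934-55768233 (plus). Capitals mark matches, on either strand, to 3 motifs of factors known from dendritic cells: the PU.1-type ETS core GAGGAA, the AP-1 motif TGANTCA, at which Batf proteins bind, and the IRF motif, which is GAAA, a pair of any bases and GAAA again.
Itgax: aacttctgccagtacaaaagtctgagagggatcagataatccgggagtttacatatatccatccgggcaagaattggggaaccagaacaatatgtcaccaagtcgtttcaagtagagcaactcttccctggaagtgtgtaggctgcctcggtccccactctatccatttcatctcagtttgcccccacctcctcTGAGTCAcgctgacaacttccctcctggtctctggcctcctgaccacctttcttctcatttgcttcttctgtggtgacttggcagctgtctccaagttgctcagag
Batf3: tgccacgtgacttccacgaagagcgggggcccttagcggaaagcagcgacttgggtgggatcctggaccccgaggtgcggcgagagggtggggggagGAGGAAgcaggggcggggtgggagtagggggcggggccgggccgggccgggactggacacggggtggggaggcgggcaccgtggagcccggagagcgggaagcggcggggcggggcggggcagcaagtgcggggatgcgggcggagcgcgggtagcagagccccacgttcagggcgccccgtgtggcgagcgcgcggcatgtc
Cd209a: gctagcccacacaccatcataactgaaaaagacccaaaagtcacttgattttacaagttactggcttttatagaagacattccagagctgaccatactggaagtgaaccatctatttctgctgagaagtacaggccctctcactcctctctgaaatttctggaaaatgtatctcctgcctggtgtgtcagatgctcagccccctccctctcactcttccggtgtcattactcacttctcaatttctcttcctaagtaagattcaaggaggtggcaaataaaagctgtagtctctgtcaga
Xcr1: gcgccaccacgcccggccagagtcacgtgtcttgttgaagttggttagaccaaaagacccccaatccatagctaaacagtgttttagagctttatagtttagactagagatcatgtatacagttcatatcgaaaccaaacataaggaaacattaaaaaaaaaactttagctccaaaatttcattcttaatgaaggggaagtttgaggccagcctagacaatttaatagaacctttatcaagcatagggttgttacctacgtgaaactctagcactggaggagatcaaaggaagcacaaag
Siglech: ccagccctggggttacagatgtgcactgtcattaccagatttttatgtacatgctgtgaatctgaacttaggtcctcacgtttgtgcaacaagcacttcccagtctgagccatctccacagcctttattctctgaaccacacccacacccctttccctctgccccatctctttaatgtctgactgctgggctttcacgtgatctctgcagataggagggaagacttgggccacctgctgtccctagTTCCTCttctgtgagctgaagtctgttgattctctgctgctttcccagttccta
Itgax held 1 AP-1 match 56 bases before the start site of its window, and Batf3 held 1 ETS core 153 bases before its own. Siglech held 1 ETS core on the opposite strand just before its start site, within the RefSeq gene bounds. No match was found in the Cd209a and Xcr1 windows. Of the members not printed, Zbtb46 held 1 AP-1 match, in a window inside its RefSeq gene bounds, and Ccl22 and Clec9a held none. Among the 32851 promoters of the same length, 28.3% held the ETS core, 7.81% the AP-1 motif and 3.44% the IRF motif, and none of the 8 member windows held the IRF motif. A match is a run of letters and not a measured site.

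The deposited values were log2 signals from RMA, a method that usually puts arrays processed together on a common distribution. The deposited arrays did not share one, and some stood apart before any result. On 10 of the arrays the 75th percentile of the signals was 6.90 to 7.15, against 7.26 to 7.72 on the other 47. Called narrow arrays below, they were WT thymus 6, array 3 in all of the lineage-negative groups, all 3 CA10 whole marrows and arrays 4, 5 and 6 of the other WT whole marrows. WT thymus 2 did not carry thymic epithelium: its mean over 7 epithelial markers was 5.20, against 8.81 to 9.91 on the other WT thymuses, and its Cd209b, a lectin of lymphoid tissue macrophages, was at 10.62. CA10 thymus 3 had an epithelial mean of 7.74 and Cd209b at 8.61, and WT thymus 7 had Cd209b at 8.49. NHD13 leukemic spleen 3 had the lowest neutrophil mean of its group, 8.11 against 11.22 to 12.80.

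The members differed most between the leukemias. Cd209a, Itgax, Batf3 and Ccl22 were higher in CA10 leukemic spleens than in NHD13 leukemic spleens, by 17.4-fold, 9.71-fold, 5.41-fold and 2.30-fold. Xcr1 was higher too, but as all 6 NHD13 leukemic arrays were below the 40th percentile of their own signals for it, no fold is given. The arrays of the groups did not overlap for any of the 5. Of the 9 probe sets tested, 6 rose and none fell. In this comparison 27.4% of all probe sets tested were called in either direction and 12.6% were called higher, and 6.26% were higher without overlap. The plasmacytoid gene Siglech did not pass the threshold. In bulk tissue, fewer cells of a type and less RNA per cell cannot be told apart, here and in every result below.

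Itgax, the integrin of both conventional types, had a lowest, median and highest signal of 7.91, 9.94 and 10.996 in the 6 CA10 leukemic spleens. In the 6 NHD13 leukemic spleens these were 5.40, 6.41 and 7.42. The lowest CA10 array stood above the highest NHD13 array. The log2 difference was 3.28 ± 0.47 (SE; limma, Benjamini-Hochberg adjusted p = 8.03e-05). The median rank of Itgax within an array was the 93.5th percentile of probe sets in CA10 and the 61.5th in NHD13.

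Batf3, the factor on which cDC1 cells depend, read 6.61, 8.84 and 9.39 (lowest, median, highest) in CA10 leukemic spleens, against 5.65, 6.00 and 6.37 in NHD13 leukemic spleens. The groups were narrowly separated: CA10 array 2, at 6.61, stood just above the highest NHD13 array, and the other CA10 arrays were at 8.02 or above. The log2 difference was 2.44 ± 0.35 (SE; limma adjusted p = 9.98e-05).

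Zbtb46, a repressor found in the conventional lineage, gave a weaker and less even result. On its brightest probe set (1429168_at) the lowest, median and highest signals were 5.89, 7.25 and 8.24 in CA10 leukemic spleens and 5.82, 6.14 and 7.31 in NHD13 leukemic spleens. The groups overlapped, and the difference of 0.93 ± 0.33 (SE) had a limma adjusted p of 0.0455. Its other tested probe sets read 0.56 ± 0.22 (1440489_at, adjusted p = 0.0685) and 0.62 ± 0.47 (1454884_at, adjusted p = 0.343), and the fourth, 1453856_at, lay above the filter on 1 array and was not tested. The call held under 8 of 22 alternatives. Leaving out any of 4 CA10 arrays (1, 3, 4, 6) or 5 NHD13 arrays (1, 2, 4, 5, 6) ended it, with adjusted p from 0.0673 to 0.11, while without NHD13 array 3, whose 7.31 was the highest of its group, the difference was 1.14 (adjusted p = 0.0137).

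Cd209a, a lectin of mouse cDC2 cells and of some monocyte-derived cells, showed the largest difference of the 7 genes. Its lowest, median and highest signals were 7.75, 9.98 and 12.44 in CA10 leukemic spleens, against 5.27, 6.10 and 6.70 in NHD13 leukemic spleens. The groups stood a full log2 unit apart, and the CA10 arrays alone spanned more than 4 such units. The log2 difference was 4.12 ± 0.63 (SE; limma adjusted p = 0.000163).

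Xcr1, the receptor of cDC1 cells for Xcl1, did not behave evenly across the CA10 leukemias. It was at 8.04, 8.86 and 7.83 on CA10 arrays 1, 4 and 6, and at 4.80, 5.48 and 4.52 on arrays 2, 3 and 5. In NHD13 leukemic spleens it lay between 3.59 and 4.36, at a median rank of the 13.4th percentile within an array, so that its level there is little more than a bound. Arrays 1, 4 and 6 thus stood well above every other spleen, while arrays 2 and 5 lay within the 4.23 to 4.90 of CA10 spleens without leukemia and array 3 lay above it. The log2 difference was 2.68 ± 0.59 (SE; limma adjusted p = 0.00301). Xcr1 was above the filter's level, the 40th percentile of its array, on only 8 arrays. These were 4 CA10 leukemic spleens, 3 WT thymuses and 1 NHD13 thymus. Above the 60th percentile it was found on CA10 arrays 1, 4 and 6 only. An alternative with that filter therefore tested it through the group in which it was high.

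Ccl22, the chemokine, read 5.69, 6.09 and 7.40 in CA10 leukemic spleens, against 4.65, 5.08 and 5.56 in NHD13 leukemic spleens (lowest, median, highest). The groups were close but did not overlap, and the log2 difference was 1.20 ± 0.25 (SE; limma adjusted p = 0.00224).

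Siglech, the plasmacytoid member, read 5.51, 7.56, 6.35, 5.21, 7.85 and 6.10 on CA10 leukemic arrays 1 to 6. In NHD13 leukemic spleens it read 5.25, 6.52, 5.26, 4.78, 5.62 and 5.22 on arrays 1 to 6. The groups overlapped, and CA10 arrays 2 and 5 were the highest of all 12. The difference of 0.99 ± 0.39 (SE; 95% interval 0.17 to 1.81) missed the threshold (limma adjusted p = 0.0677). It passed in 5 of 22 alternatives, among them those without CA10 array 1 (adjusted p = 0.042), without CA10 array 4 (0.0254) and without NHD13 array 2 (0.0302).

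**Figure D1:**
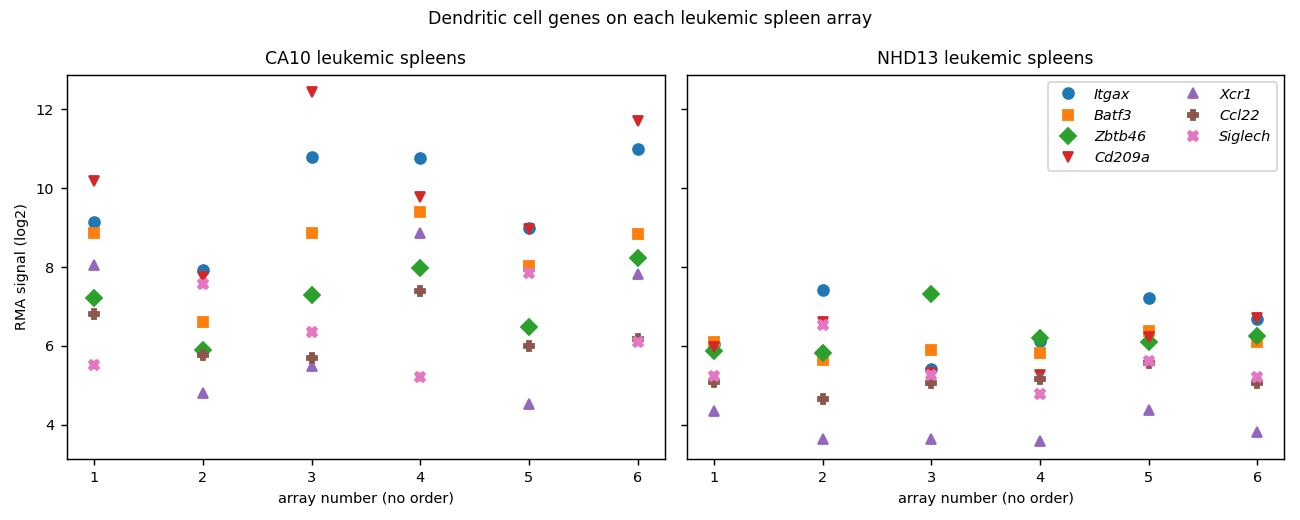
RMA signal (log2, vertical axis) of the brightest probe set of each gene on the 6 CA10 leukemic spleen arrays (left) and the 6 NHD13 leukemic spleen arrays (right); each point is 1 array, and array numbers have no order. On CA10 arrays 2 and 5 Siglech is at 7.56 and 7.85 while Itgax is at 7.91 and 9.0005, and Xcr1 is high on CA10 arrays 1, 4 and 6 only.

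The 6 CA10 leukemic spleens differed among themselves in these genes. Arrays 2 and 5 had the highest Siglech and the lowest Itgax, Batf3, Cd209a and Zbtb46 of the 6. A list of 15 other plasmacytoid genes averaged 8.48 and 8.74 on them and 7.54 to 8.03 on the other 4. This list did not pick those arrays, but it and the lists below were chosen with earlier results of these data known. Arrays 1, 4 and 6, with high Xcr1, also had the highest means over 9 other cDC1 genes, at 9.49, 10.06 and 9.12, against 7.87, 7.97 and 8.16 on arrays 2, 3 and 5. Batf3 did not follow this split on array 3, where it was at 8.85, level with arrays 1 (8.86) and 6 (8.83). Cd209a was highest on arrays 3 and 6 (12.44 and 11.69), where a list of 9 other cDC2 genes averaged 8.57 and 8.60, against 8.16 to 8.36 on the other 4. These are values of single arrays, and the labels give no subgroup of CA10 leukemia, so no test was made between them.

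Set against spleens without leukemia, the same genes looked different. In CA10 leukemic spleens no member probe set passed the threshold against the 2 WT spleens (7.08% of all probe sets did) or against the 5 CA10 spleens without leukemia (6.26% did). Of the 9, 1 was higher than in WT spleens without overlap, Cd209a, and 19% of all probe sets were. Itgax read 9.35 and 9.63 in the WT spleens and 8.76 to 9.75 in the healthy CA10 spleens. CA10 leukemic spleens lay on both sides of these, with a log2 difference from WT of 0.27 and a 95% interval of -1.11 to 1.65.

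For Cd209a and Xcr1 the CA10 leukemic spleens had higher means than both references without passing. Cd209a read 6.73 to 9.44 in healthy CA10 spleens and 7.58 and 7.67 in WT spleens. Its log2 difference was 2.16 ± 0.66 against healthy CA10 spleens (SE; limma adjusted p = 0.0607) and 2.51 ± 0.89 against WT (adjusted p = 0.0914). The corresponding differences of Xcr1 were 2.08 ± 0.62 (adjusted p = 0.0531) and 2.02 ± 0.83 (adjusted p = 0.144). CA10 leukemic array 2 had the lowest Itgax, Cd209a, Batf3 and Zbtb46 of its group. Its Xcr1, at 4.80, was below the group mean of 6.59. Leaving it out could therefore only raise the differences of these genes, Xcr1 included. Without it, Cd209a passed against healthy CA10 spleens (2.63, adjusted p = 0.0274), as did Xcr1 (2.44, adjusted p = 0.0343) and Batf3 (1.25, adjusted p = 0.019), where 3.43% of all probe sets did. Against WT spleens, Cd209a (2.99, adjusted p = 0.0388) and Batf3 (1.32, adjusted p = 0.0377) passed without that array, where 4.64% of all probe sets did.

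In NHD13 leukemic spleens, 2 of 9 probe sets fell relative to WT spleens, where 31.2% of all probe sets were called and 12.6% were called lower. The groups did not overlap for 5 of the 9 (Itgax, Batf3, Cd209a, Xcr1 and Ccl22), all lower in NHD13 leukemia, as were 19.3% of all probe sets. Itgax was 8.05-fold lower, with a log2 difference of -3.01 ± 0.66 (SE; limma adjusted p = 0.00256). Batf3, at 7.44 and 7.52 in the WT spleens, was 2.79-fold lower (-1.48 ± 0.50, adjusted p = 0.0317). The Batf3 call was lost without NHD13 array 2 (adjusted p = 0.0514), WT spleen 1 (0.162) or WT spleen 2 (0.146). Cd209a at -1.61 ± 0.89 (adjusted p = 0.179), Siglech at -1.16 ± 0.55 (adjusted p = 0.117) and Ccl22 at -0.86 ± 0.36 (adjusted p = 0.0769) were not called. CA10 spleens without leukemia did not differ from WT spleens in any of the 9 probe sets by limma, where 0% of all probe sets were called; the comparison rests on 2 WT arrays, and no member had an unadjusted p under 0.507.

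In NHD13 leukemic against WT spleens, where 31.1% of all genes were called and 12.1% were lower, 7 of 13 shared conventional genes fell, and so did 8 of 11 maturation genes, 4 of 15 plasmacytoid genes and 7 of 9 MHC class II genes, while none of 9 cDC1 genes passed. All 8 B cell and all 8 T cell markers fell as well, and their part in these values was not tested.

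**Figure D2:**
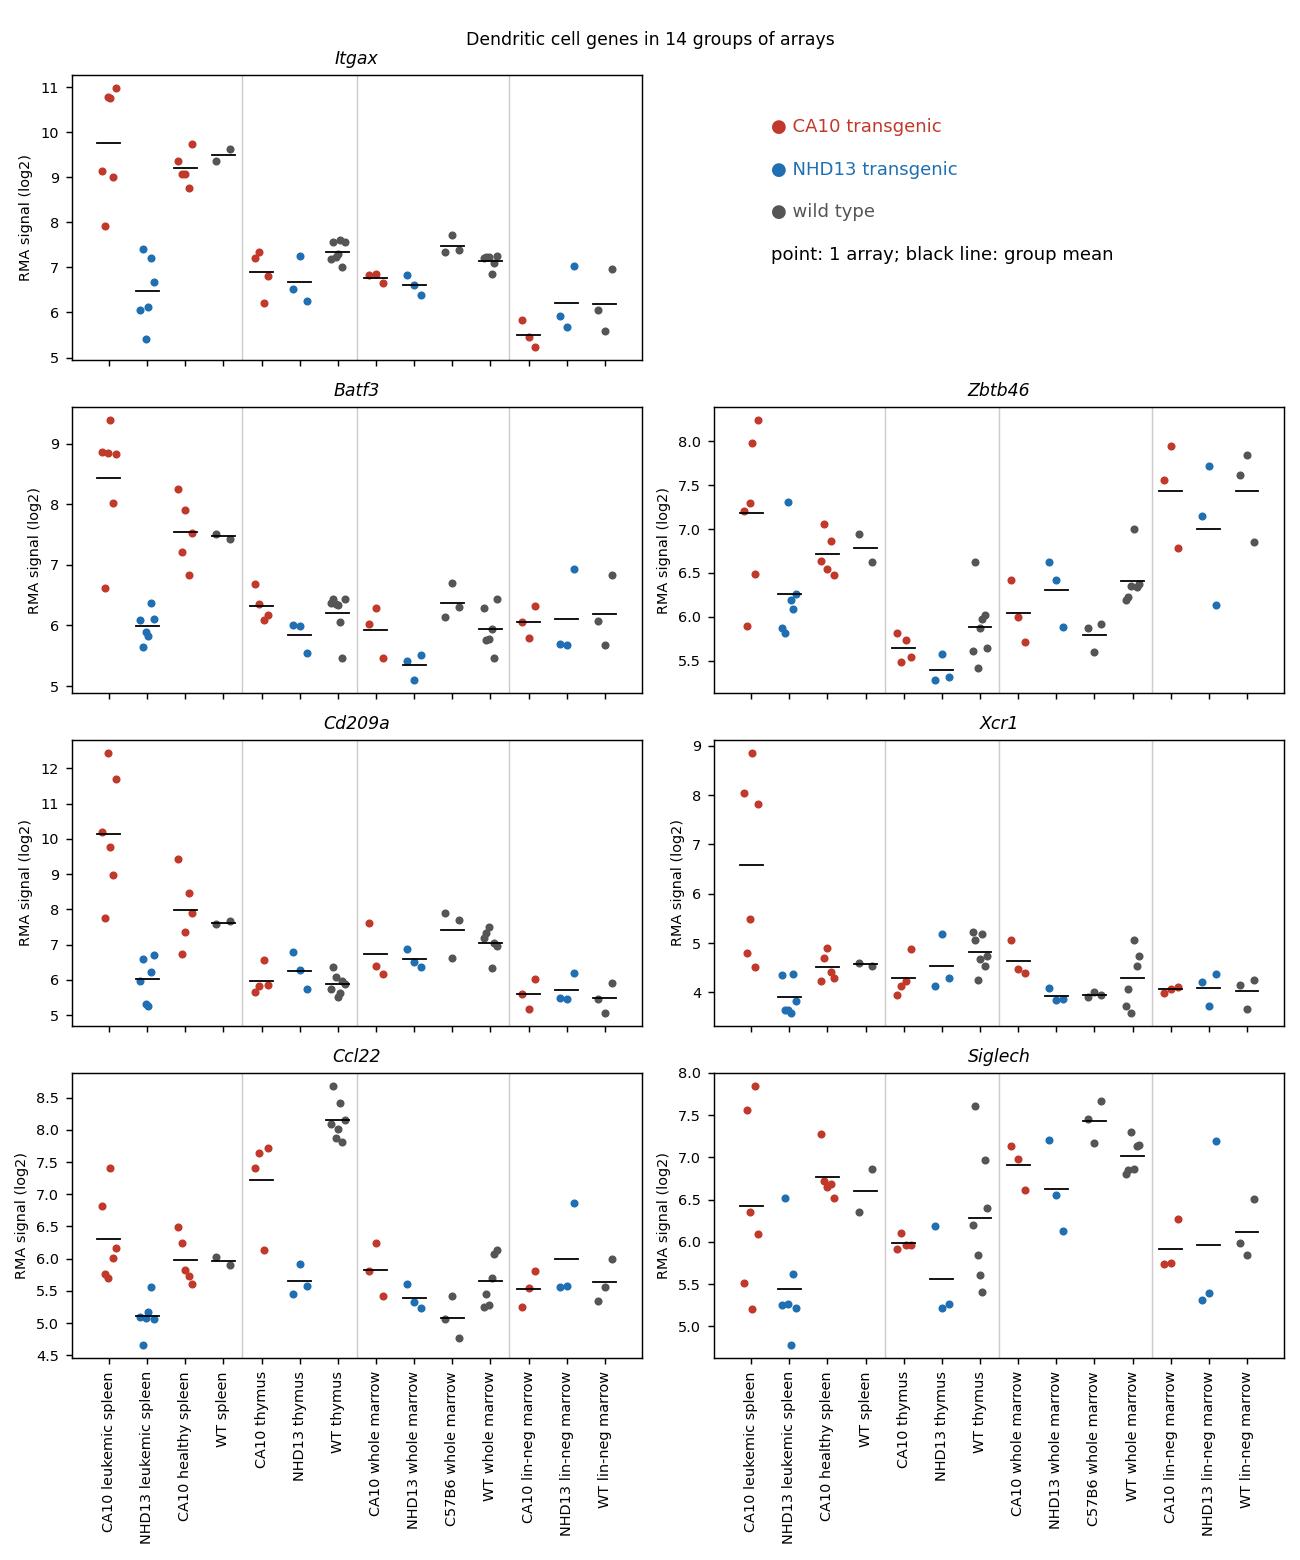
RMA signal (log2, vertical axes) of the brightest probe set of 7 dendritic cell genes on all 57 arrays in 14 groups (horizontal axis); points are arrays and black lines group means. Itgax, Batf3 and Cd209a are higher in CA10 than in NHD13 leukemic spleens, and Ccl22 is highest in WT thymus, with a group mean of 8.15.

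The other genes known from dendritic cells were described by lists, each gene by its brightest probe set, with 25.4% of all genes called (12% higher) and a median log2 difference over all genes of -0.02 between CA10 and NHD13 leukemic spleens. Of 13 genes shared by conventional dendritic cells, 13 rose, with a median of 1.77. They included Ap1s3, a subunit of a clathrin adaptor (2.51 ± 0.26, SE), Traf1, a signal adaptor of TNF receptors (2.99 ± 0.34), and Kmo, an enzyme of tryptophan breakdown (2.86 ± 0.34). Of 9 cDC1 genes, 7 rose (median 1.82): Tlr3, the sensor of double-stranded RNA, by 2.90 ± 0.51, Naaa, a lipid amidase, by 2.54 ± 0.51, and Cxcr3, a chemokine receptor, by 1.90 ± 0.33. Irf8, a factor required by cDC1 cells, rose by 2.01 on the log2 scale, while Ly75 (0.87) and Gcsam (0.66) were not called.

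The cDC2 list was mixed, with 3 of 9 higher, 1 lower and a median of 0.29. Clec10a, a lectin, rose by 4.00 ± 0.70 (SE) and Irf4, a factor of cDC2 cells that also acts in B and T cells, by 2.29 ± 0.41, while Epcam rose by 0.37 ± 0.12 and Notch2 fell by 0.63 on the log2 scale. Of 15 plasmacytoid genes other than Siglech, 9 rose (median 1.49), led by Tlr7, the sensor of single-stranded RNA (2.05 ± 0.35), Spib, an ETS factor (2.68 ± 0.49), and Ccr9, a chemokine receptor (2.49 ± 0.47). The factor that defines the plasmacytoid lineage, Tcf4, read -0.04 (limma adjusted p = 0.907), and Bst2 read 0.57 (adjusted p = 0.26). Spib is also expressed by B cells, and Ccr9 by T cells.

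Among genes of maturation and migration, 7 of 11 rose (median 1.39), including Cd83 (2.95 ± 0.33, SE) and the costimulators Cd40 (2.12 ± 0.27) and Cd80 (1.00 ± 0.16). Of the members' partners, 4 of 6 rose (median 0.72): Xcl1, the ligand of Xcr1, by 0.88 ± 0.19, Ccr6, a chemokine receptor, by 2.66 ± 0.34, Csf2ra, a GM-CSF receptor chain, by 1.86 ± 0.43, and Csf2, its ligand, by 0.56. Xcl1 was dim, with group means of 5.03 in CA10 and 4.15 in NHD13, both below the lowest array median of 5.44. Ccr4, the receptor of Ccl22, did not pass the filter. Genes of MHC class II presentation, used by dendritic cells and B cells alike, rose in 8 of 9 cases (median 3.38), with H2-Aa at 5.04 ± 0.39 and the invariant chain Cd74 at 4.78 ± 0.31.

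**Figure D3:**
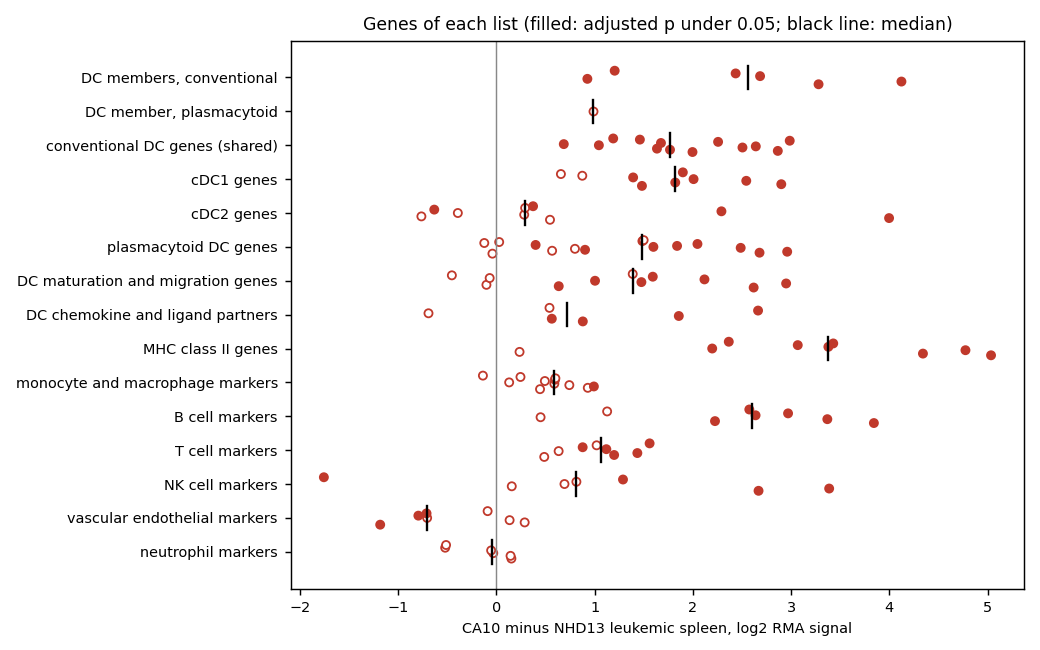
Log2 difference of CA10 minus NHD13 leukemic spleens (horizontal axis) for every tested gene of each list (rows); filled points had a limma adjusted p under 0.05 and black lines are list medians. All 13 shared conventional genes lie to the right of 0 and are filled, and the B cell list also lies to the right, with a median of 2.61.

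Markers of other cells moved in the same comparison. Of 8 B cell markers, 6 rose, and their mean was 6.12 to 9.40 across the CA10 leukemic spleens and 5.23 to 6.46 across the NHD13 leukemic spleens. T cell markers rose in 5 of 8 cases (6.39 to 7.72 in CA10, 5.36 to 6.50 in NHD13) and natural killer markers in 3 of 7, with 1 lower (5.76 to 7.16 in CA10, 4.50 to 5.74 in NHD13). Monocyte and macrophage markers rose in 1 of 11 cases (8.68 to 9.77 in CA10, 7.66 to 9.32 in NHD13), endothelial markers fell in 3 of 7, and none of 6 neutrophil markers changed by limma. The part of these cells in the members' differences was not tested.

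A gene outside the cell type lists bears on the comparison of leukemias. It was on a list taken from earlier results for C57B6 against other WT marrows, so its difference there was known beforehand. The other genes of that list are not given here. Ifi202b, an interferon-inducible gene, was at 4.15 to 4.53 in the marrows labelled C57B6 and at 7.73 to 9.80 in the other WT marrows. It was at 10.42 to 12.31 in CA10 leukemic spleens and at 3.68 to 4.91 in NHD13 leukemic spleens, while NHD13 whole marrows were at 8.96 to 10.10 and lineage-negative marrows of every genotype were at 4.37 to 5.32. The transgene, the strain background and the labelling of the leukemic spleens cannot be told apart with these arrays. Ifi202b was at 6.79 and 6.99 in the WT spleens, so the same limit holds for NHD13 leukemic against WT spleens. In an alternative, the difference of the other WT minus the C57B6 marrows was subtracted from that of the CA10 minus the NHD13 leukemic spleens. Itgax, Cd209a and Batf3 were higher in C57B6 than in other WT marrows, by 0.33, 0.35 and 0.44 on the log2 scale, so this subtraction could only enlarge their differences. Itgax (3.61), Cd209a (4.48), Batf3 (2.87) and Xcr1 (2.35) passed, with limma adjusted p from 1.23e-05 to 0.0242, where 3.88% of all probe sets did. Ccl22 (0.64, adjusted p = 0.454) and Zbtb46 1429168_at (0.31, adjusted p = 0.789) did not. For NHD13 leukemic minus WT spleens, the difference of the C57B6 minus the other WT marrows was subtracted likewise. There 2 of 9 member probe sets passed, where 7.01% of all probe sets did. In the C57B6 marrows themselves 1 of 9 member probe sets passed against the other WT marrows, where 19.6% of all probe sets did. It was Zbtb46 1440489_at, at -0.82 ± 0.22 (SE; adjusted p = 0.0176), and with the narrow and the other arrays kept apart as blocks it was at -0.47 (adjusted p = 0.0668). Without C57B6 marrow 1 or 3 its call was also lost (adjusted p = 0.0633 and 0.0842).

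In thymus, Ccl22 was the member that varied. It read 7.41, 7.64, 6.14 and 7.71 on the 4 CA10 thymuses and 5.46, 5.92 and 5.57 on the 3 NHD13 thymuses. The 7 WT thymuses read 7.82, 8.09 and 8.69 (lowest, median, highest). The 3 genotypes did not overlap, with WT highest and NHD13 lowest, and WT thymus was the group with the highest Ccl22 of all 14.

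Ccl22 was 5.66-fold lower in NHD13 than in WT thymuses, with a log2 difference of -2.50 ± 0.30 (SE; limma adjusted p = 0.00125). It was the only 1 of 9 member probe sets to pass, where 0.589% of all probe sets did, and 2.37% of all probe sets were lower without overlap. Without WT thymuses 2 and 7 and CA10 thymus 3, which were left out after the data were seen, the difference was -2.39 (adjusted p = 0.00034). Between CA10 and NHD13 thymuses it was 1.58 ± 0.34 and was not called (adjusted p = 0.128), as for every member, where 0.132% of all probe sets were called. Of the 9 probe sets, 3 were higher in CA10 without overlap (Ccl22, Batf3 and Zbtb46 1440489_at), as were 4.95% of all probe sets. CA10 thymus 3 had the lowest Ccl22 of its group, 6.14, so leaving it out could only raise the Ccl22 difference. Without it alone the difference was 1.94 (limma adjusted p = 0.00517), and without the 3 thymuses that stood apart it was 1.94 (adjusted p = 0.00438). These calls are therefore no separate evidence. Between CA10 and WT thymuses the difference was -0.92 ± 0.28 (adjusted p = 0.958), where 0% of all probe sets were called and 0.203% were lower without overlap, and without the 3 thymuses it was -0.45 (adjusted p = 1).

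**Figure D4:**
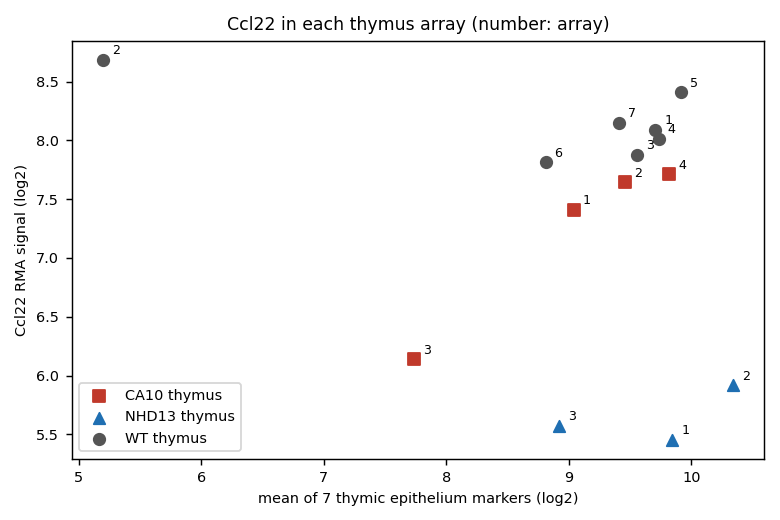
Ccl22 RMA signal (log2, vertical axis) against the mean of 7 thymic epithelium markers (log2, horizontal axis) on each of the 14 thymus arrays, numbered within their group. The 3 NHD13 thymuses lie lowest, at 5.46 to 5.92, with epithelial means of 8.92 to 10.34, and WT thymus 2 lies alone at an epithelial mean of 5.20.

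Other cells differed between these thymuses as well. The mean of 8 T cell markers was 9.43 to 11.31 in CA10 thymuses, 8.996 to 10.32 in NHD13 thymuses and 8.68 to 11.62 in WT thymuses, where WT thymus 2 was the lowest and the other 6 were at 10.70 or above. None of the 8 markers passed between NHD13 and WT thymuses by limma (median -1.34), while 1 of 8 B cell markers, Ms4a1, fell. The B cell mean was 6.80 to 7.49 in CA10 thymuses, 5.53 to 6.03 in NHD13 thymuses and 6.49 to 9.35 in WT thymuses, with the 9.35 on WT thymus 2. The part of T and B cells in the Ccl22 difference was not tested. Of 13 shared conventional genes, 2 fell in NHD13 against WT thymuses, where 0.705% of all genes were called: Bcl6, a repressor that also acts in T cells (-2.18 on the log2 scale, adjusted p = 0.000642), and Traf1 (-2.02, adjusted p = 0.0375). Ccr7, the receptor that guides mature dendritic cells and thymocytes, fell by 2.66 (adjusted p = 0.0126). Of the plasmacytoid list, Tcf4 was higher by 1.37 (adjusted p = 0.0359) and Pacsin1 lower (-1.27, adjusted p = 0.0351). Between CA10 and NHD13 thymuses Bcl6 alone of the dendritic cell lists passed (1.58 ± 0.27, SE; adjusted p = 0.0375), where 0.176% of all genes were called.

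The remaining members differed little in thymus. The log2 differences of CA10 from NHD13 thymuses were 0.21 for Itgax (95% interval -0.42 to 0.84), 0.48 for Batf3 (-0.06 to 1.01), -0.28 for Cd209a (-0.90 to 0.33), -0.24 for Xcr1 (-0.91 to 0.43) and 0.42 for Siglech (-0.52 to 1.36). The Siglech signals of WT thymuses were widely spread, between 5.41 and 7.60, and the 7.60 was that of WT thymus 2.

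Siglech had its 3 highest group means of the 14 in C57B6, other WT and CA10 whole marrows, and NHD13 whole marrows came after CA10 spleens without leukemia. The signals were 6.62, 6.98 and 7.14 in CA10 marrows, 6.12, 6.55 and 7.2003 in NHD13 marrows, 7.17, 7.45 and 7.67 in C57B6 marrows and 6.80 to 7.30 in the other 6 WT marrows. The groups overlapped from one to the next in the order of their means. The log2 difference of CA10 from NHD13 was 0.29 ± 0.25 (SE; limma adjusted p = 0.366).

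Between CA10 and NHD13 whole marrows 1 of 9 member probe sets passed, where 28.3% of all probe sets did, and 2 of 9 (that one and Xcr1) were higher without overlap, as were 26.1% of all. It was Zbtb46 1440489_at, at 7.00, 7.04 and 7.25 in CA10 marrows and 6.11, 6.20 and 6.55 in NHD13 marrows, with a log2 difference of 0.81 ± 0.26 (SE; adjusted p = 0.034). Its other probe sets pointed the other way, at -0.27 (1429168_at, adjusted p = 0.392) and -0.70 (1454884_at, adjusted p = 0.0879). All CA10 marrows were narrow arrays and no NHD13 marrow was; with the array set as a block the difference was 0.09 (adjusted p = 0.92). Leaving out any of the 6 arrays also ended the call (adjusted p from 0.0613 to 0.115). Itgax differed by 0.16 (95% interval -0.22 to 0.54), Batf3 by 0.58 (0.02 to 1.15), Cd209a by 0.14 (-0.67 to 0.95), Xcr1 by 0.71 (0.03 to 1.38) and Ccl22 by 0.43 (-0.15 to 1.01).

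Against the 6 other WT marrows no member passed in CA10 marrows (0% of all probe sets did) or in NHD13 marrows (0.814% did). Itgax was 6.65, 6.82 and 6.85 in CA10 marrows and 6.38, 6.62 and 6.83 in NHD13 marrows, below all 6 WT marrows at 6.85 to 7.25, if only just for the highest CA10 array. Its log2 differences from WT were -0.37 ± 0.15 in CA10 (SE; limma adjusted p = 0.302) and -0.53 ± 0.15 in NHD13 (adjusted p = 0.144). Of all probe sets, 3.38% were lower without overlap in CA10 and 2.19% in NHD13. When the C57B6 marrows were the reference, Itgax (-0.87, adjusted p = 0.00312), Batf3 (-1.04, adjusted p = 0.0127) and Siglech (-0.80, adjusted p = 0.0347) passed in NHD13 marrows, where 18% of all probe sets did.

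For the shared conventional and plasmacytoid lists, the shares called between CA10 and NHD13 whole marrows were near the 27.9% of all genes called, and the list medians were 0.22 (shared conventional) and -0.21 (plasmacytoid), against -0.10 over all genes. Of the 13 shared conventional genes 4 rose, among them Adam19, a metalloprotease (1.25 ± 0.26 on the log2 scale, SE; limma adjusted p = 0.0126), Slamf7 (0.86 ± 0.23, adjusted p = 0.022) and Dpp4 (0.94 ± 0.31, adjusted p = 0.0384). Of 15 plasmacytoid genes 3 rose and 2 fell: Spib was at 8.91 in CA10 and 7.28 in NHD13 marrows (1.63 ± 0.33, adjusted p = 0.0111), while Tcf4 (-0.997 ± 0.30, adjusted p = 0.0285) and Bst2 (-0.79 ± 0.22, adjusted p = 0.0252) were lower. On the maturation and migration list, Socs2, a brake on cytokine signals, was lower by 2.44 ± 0.35 (limma adjusted p = 0.00248). It was at 5.98 in CA10 and 8.42 in NHD13 marrows. Of the same list, Relb was higher (0.77 ± 0.17, adjusted p = 0.0138) and Cd274 lower (-0.70 ± 0.24, adjusted p = 0.04). Of 8 B cell markers 7 rose (median 1.44), and the part of B cells and of the narrow arrays in these values was not tested.

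In lineage-negative marrow Itgax and Cd209a had their 3 lowest group means of the 14, while other members did not. Itgax averaged 5.50, 6.21 and 6.20 in the CA10, NHD13 and WT groups, and Cd209a 5.60, 5.71 and 5.48. Batf3, at 6.06, 6.10 and 6.19, stood in the middle of its order, above the CA10, NHD13 and other WT whole marrows, and Ccl22 averaged 5.53, 6.00 and 5.63. Zbtb46 1429168_at averaged 7.43 ± 0.59 in CA10, 7.00 ± 0.80 in NHD13 and 7.44 ± 0.52 in WT (SD, n = 3 each), and on this probe set the WT and CA10 groups had the highest means of all 14. On 1440489_at the highest mean was that of CA10 whole marrows (7.10, against 6.40 in CA10 and 6.70 in WT lineage-negative marrow). On 1454884_at CA10 healthy (6.86), CA10 leukemic (6.84) and WT spleens (6.71) stood above CA10 (6.56) and WT (6.34) lineage-negative marrow. No member passed between CA10 and NHD13, CA10 and WT (0% of all probe sets in either) or NHD13 and WT (0.0214%). The smallest unadjusted p of a member over the 3 comparisons was 0.145, for Itgax between CA10 and NHD13. NHD13 array 3, where the 3' probe set of Gapdh was 2.95 log2 units above its 5' probe set, had the highest Itgax (7.04) and Siglech (7.19) of its group.

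The leukemic difference between CA10 and NHD13 was then set against the difference without leukemia in 1 fit over 57 arrays. Relative to thymus it was larger by 4.41 for Cd209a, 3.07 for Itgax, 2.92 for Xcr1 and 1.96 for Batf3 (limma adjusted p from 5.72e-05 to 0.00778), where 3.93% of all probe sets were called. Relative to whole marrow, Cd209a (3.99), Itgax (3.12) and Batf3 (1.86) passed (adjusted p from 0.000314 to 0.0101; 11.1% of all probe sets), and Xcr1 at 1.98 had an adjusted p of 0.057. Relative to lineage-negative marrow, Cd209a (4.23), Itgax (3.99), Xcr1 (2.72), Batf3 (2.48) and Ccl22 (1.67) passed, where 3.38% of all probe sets did; Xcr1 and Ccl22 each passed in 21 of 25 alternatives. Ccl22 relative to thymus was at -0.37 (adjusted p = 0.773), and Zbtb46 and Siglech passed in none of the 3 tests. Tissue and clinical state change together in these contrasts, since the leukemic samples were spleens.

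**Figure D5:**
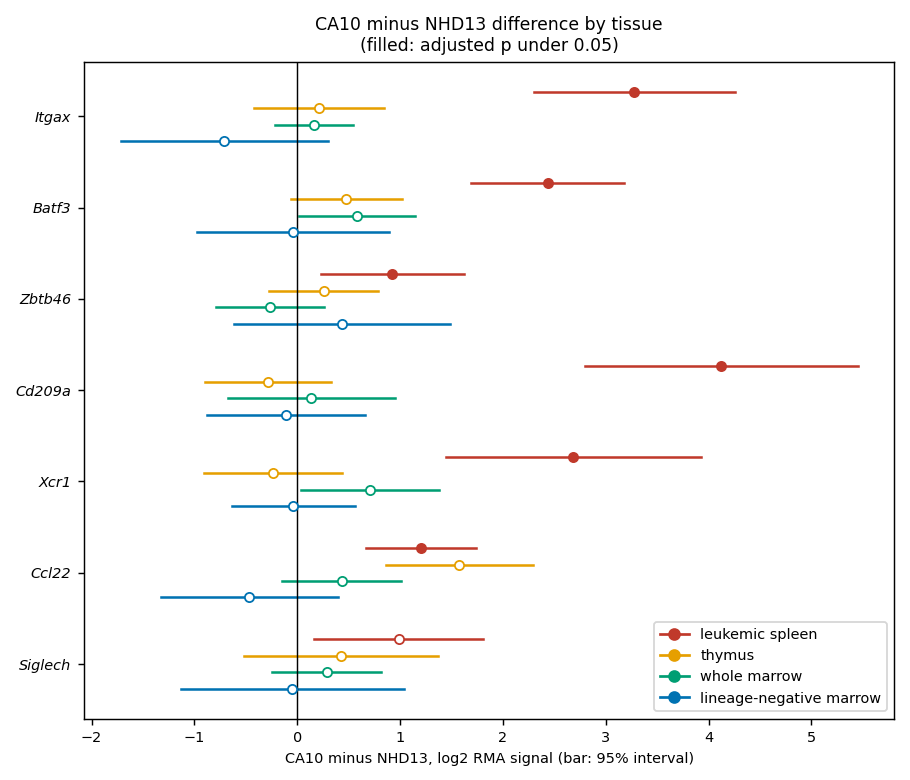
Log2 difference of CA10 minus NHD13 (horizontal axis) for the brightest probe set of each gene (rows) in leukemic spleen, thymus, whole marrow and lineage-negative marrow; bars are 95% intervals from limma and filled points had an adjusted p under 0.05. Filled points are found in leukemic spleen only, where Itgax is at 3.28 and Cd209a at 4.12.

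Across all 57 arrays, the genes whose signals followed the members most closely were named by Pearson correlation, as a description, since the arrays share groups and tissues. Itgax was followed by Ciita (r = 0.91), the activator of MHC class II genes, Gpr18 (0.91) and Kmo (0.90), and Cd209a by Kmo (0.85), Ppfia4 (0.85) and Rnd3 (0.84). Batf3 was followed by Hepacam2 (0.86), Ciita (0.83) and Havcr2 (0.82), and Xcr1 by Septin3 (0.89), Tlr3 (0.83) and Slamf8 (0.80). Ccl22 was followed by Icos (0.87), Cd96 (0.85) and Itgae (0.84), which are known from T cells, and Itgae was also on the cDC1 list. Zbtb46 was followed by Slc46a3 (0.81), Bcl11a (0.76) and Zswim1 (0.74), and Siglech most loosely, by Reln (0.76), D13Ertd608e (0.75) and Havcr1 (0.69).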

How the data were processed

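The authors deposited log2 signals made with RMA, per the submitters' processing notes, in 1 table of 57 arrays; the RMA version is not given in the sources used here. The signals ran from 2.58 to 14.65. Gene names came from the platform annotation, and only probe sets with 1 gene were used. Probe sets above the 40th percentile of their array on at least 3 arrays were tested, 28025 in all. For each tissue, 1 limma model (limma 3.58.1, R 4.3.3) held a mean per group, with Benjamini-Hochberg adjustment over all probe sets and a threshold of 0.05; differences between tissues used 1 model over 57 arrays. Errors of log2 differences are the model's standard errors, and folds are 2 to the power of those differences. Lists used each gene's brightest probe set. Arrays give no read depth, so their number limits the precision.

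The members and lists were chosen with earlier results of these data known. Named were all members, up to 3 called genes per list with the smallest adjusted p in each comparison of CA10 with NHD13, and for each member the 3 genes with the highest correlation; Ifi202b and other list genes were named after their values were seen. Array numbers are in the labels, which state no pairing. Among comparisons with 3 or more same-numbered pairs, every pair correlated above 0.1 only in the 3 lineage-negative ones (0.187 to 0.762). The fit was checked on simulated data. Promoters are from RefSeq (GRCm38.p6), which held all 8 listed genes.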

Additional observations from a re-analysis of the deposited data

Results flagged for a closer look

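Within groups of 4 to 10 arrays, 54 sets of member signals were examined for an array far from the others, and 4 had one; chance gives about 1 in 20. Batf3 was at 5.46 on WT thymus 6, with the next array at 6.06. Siglech was at 7.27 on CA10 healthy spleen 1, with the next at 6.72. Zbtb46 1429168_at was at 7.31 on NHD13 leukemic spleen 3, with the next at 6.26, and at 7.00 on WT whole marrow 4, with the next at 6.37. WT thymus 6 and WT whole marrow 4 were narrow arrays, and on CA10 healthy spleen 1 the 3' probe set of Gapdh was 2.09 log2 units above its 5' probe set.

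The difference of CA10 from NHD13 was larger in leukemic spleen than in another tissue, by limma's test of that difference, for several members. Against thymus the excess was 4.41 for Cd209a, 3.07 for Itgax, 2.92 for Xcr1 and 1.96 for Batf3. Against whole marrow it was 3.99 for Cd209a, 3.12 for Itgax and 1.86 for Batf3. Against lineage-negative marrow it was 4.23 for Cd209a, 3.99 for Itgax, 2.72 for Xcr1, 2.48 for Batf3 and 1.67 for Ccl22. The part of narrow arrays in these values was not tested beyond the alternatives given for lineage-negative marrow.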

How the results depend on the processing

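Between CA10 and NHD13 leukemic spleens, Itgax, Cd209a, Batf3 and Xcr1 passed under all 22 alternatives run. Among these, the filter at the 60th percentile kept Xcr1 only through CA10 leukemic arrays. The member count there was 6, 5 to 7 with 1 array left out and 4 to 8 over all alternatives. Of 3114 member differences recomputed, none reversed after a call, 40 lost and 54 gained a call, and of 2538 called under neither setting 147 had another sign. The cause of these changes was not tested. In the following counts of called member probe sets, the value in brackets that is not a percentage is the one reported above. Counts without the share of all probe sets beside them cannot be set against it. With the spread taken over all 57 arrays, 2 passed in CA10 leukemic against WT spleens (0), where 4.06% of all probe sets did. Likewise 2 passed in CA10 leukemic against healthy CA10 spleens (0), where 3.12% of all did. In CA10 against NHD13 thymuses 1 passed (0), where 1.32% of all did. In CA10 leukemic against healthy CA10 spleens, 1 passed with a filter at the 60th percentile and 1 with quantile normalization. With only the 2 groups compared, 4 passed in NHD13 leukemic against WT spleens (2), where 25.4% of all probe sets did. By the same fit 3 passed in CA10 against NHD13 whole marrows (1), where 54% of all did. In C57B6 against other WT marrows 0 passed (1), where 10.6% of all did. With 1 probe set per gene, brightest or averaged, 0 passed in either of these marrow comparisons, and 0 with the array set as a block. In C57B6 against other WT marrows 2 passed with a filter at the 60th percentile and 0 without narrow arrays. Without narrow arrays, 3 passed in leukemic spleen relative to lineage-negative marrow (5). With C57B6 marrows as the reference, 3 passed in NHD13 marrows (0; 18% of all probe sets called), and without the 3 thymuses that stood apart, 1 passed in CA10 against NHD13 thymuses (0).

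The array number as a replicate block kept only arrays whose number both groups had. In NHD13 leukemic against WT spleens these were 2 arrays a group, and 6 member probe sets passed, where 31.4% of all did. In NHD13 against WT thymuses 0 passed (1), as did 0% of all, with Ccl22 at -2.57 (limma adjusted p = 0.325). For whole marrow, 3 passed in CA10 against NHD13 (55.9% of all) and 4 in CA10 against WT (0), where 53.8% of all did. The narrow WT marrows, arrays 4, 5 and 6, were dropped there. In both comparisons the CA10 arrays were narrow and the others were not, so genotype and array set cannot be told apart. In C57B6 against other WT marrows 0 passed, where 7.62% of all did. Numbers were not shown to pair the arrays. In lineage-negative marrow same-numbered arrays correlated, but array 3 was narrow in every group there, which can give such correlations without pairing. The block changed no member call in that tissue.

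With 1 array left out, counts were 0 to 2 in CA10 leukemic against WT spleens, 0 to 3 in CA10 leukemic against healthy CA10 spleens, 1 to 2 in NHD13 leukemic against WT spleens, 0 to 1 in CA10 against NHD13 thymuses and in CA10 against NHD13 whole marrows, 0 to 2 in C57B6 against other WT marrows, and 3 to 6 and 3 to 5 for leukemic spleen relative to whole marrow (3) and to lineage-negative marrow. Over all alternatives, the probe sets called among all tested ranged from 1088 to 8580 between leukemias (7691), 1964 to 9339 in NHD13 leukemic against WT spleens (8738) and 148 to 15662 between CA10 and NHD13 whole marrows (7926). Comparisons with 2 WT spleens or 3 arrays a group limit what could be called, and dim probe sets such as Xcr1 sit near the array background.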
